A study of Mus musculus with 12 samples.

Results

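The nuclear genome encodes most subunits of the 5 complexes of the mitochondrial respiratory chain, and their transcripts were followed here in bone marrow cells of the mouse. Genes were taken by symbol: those starting with Nduf (complex I), Sdha to Sdhd (complex II), those starting with Uqcr (complex III), those starting with Cox followed by a digit of 4 to 8 (complex IV), and those starting with Atp5 (complex V). This gave 97 of the 21958 genes in the deposited table: 48 for complex I, 4 for complex II, 8 for complex III, 19 for complex IV and 18 for complex V. The symbols also cover 8 assembly factors of complex I (Ndufaf1 to Ndufaf8), which are not subunits of the finished enzyme, and the gene copies Cox5b-ps and Ndufb11b. Of the 97 genes, 83 are also in the oxidative phosphorylation pathway that the deposited KEGG annotation names.

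RNA was sequenced after poly(A) selection from 12 samples of wild-type mice, 4 in each of 3 groups. Mice of the cornus group were given self-assembled nanoparticles of Cornus officinalis, a dogwood, those of the model group were given CTX to suppress the marrow, and those of the control group had no treatment. The labels do not say whether mice of the cornus group also received CTX, nor give the age, sex or strain, and they do not expand CTX. The design text speaks of biological replicates, but no label ties a sample to an animal, so p-values speak of the spread between samples, which may be partly technical.

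The respiratory chain sits in the inner mitochondrial membrane. Complexes I and II pass electrons to ubiquinone, complex III passes them to cytochrome c and complex IV to oxygen, while complexes I, III and IV pump protons that complex V, the ATP synthase, uses to make ATP. Complexes I, III, IV and V also hold subunits encoded by the mitochondrial genome, whereas complex II is wholly nuclear. In marrow, mitochondria are abundant in dividing precursors and in erythroblasts, are lost from mature red cells, and are few in mature neutrophils.

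Library totals lay between 13902122 and 19139771 counts. Controls 1 to 3 were nearly alike: their counts differed by 1.71 to 1.93 times the sampling variance per gene (chi-square over its degrees of freedom), against 13.6 to 160 in every other pair of libraries within a group. A gene therefore counts as higher or lower than control, written rose or fell, if its adjusted p (edgeR, quasi-likelihood test) was under 0.05 in the fit of all 12 libraries and again with controls 1 to 3 summed to 1 sample. Control 4 stood apart, with hemoglobin transcripts at 9.80% of its counts against 2.45% to 2.49% in controls 1 to 3. It was also the control with the highest level of most genes described here: 85 of 90 were higher in control 4 than in the mean of controls 1 to 3, with a median difference of 0.45 on the log2 scale, against 52.3% and a median of 0.026 over all tested genes.

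Marker transcripts of other cell types were counted by the same rule, which called 19.7% of all tested genes lower and 18.6% higher in cornus and 15.8% lower and 17.7% higher in model. None of the marker genes below was at 0 in every library. Of 8 B lineage markers, 8 fell in model and 8 in cornus, and their summed level was 13.1 to 121 CPM (counts scaled to library size) in cornus, 59.8 to 86.0 CPM in model and 854 to 1917 CPM in control libraries. Eosinophil markers fell for 5 of 6 genes in either group, with sums of 112 to 169.6 CPM in cornus, 95.8 to 668 CPM in model and 3767 to 5215 CPM in control. Late neutrophil markers fell for 3 of 12 genes in cornus and 8 of 12 in model, and primary granule markers of promyelocytes rose for 1 of 4 genes in cornus and 4 of 4 in model. The erythroid list fell for 1 of 14 genes in cornus and 3 of 14 in model, with sums of 458 to 21243 CPM in cornus, 829 to 14883 CPM in model and 29987 to 115610 CPM in control. Among T and NK cell markers 3 of 5 fell in either group, while of 4 monocyte markers 2 rose in cornus and 1 in model, and of 5 stem and progenitor markers 1 rose and 1 fell in cornus and 1 rose in model. The erythroid counts and the late neutrophil count in cornus lie near or below the shares over all tested genes. Even so, all 14 erythroid log2 changes were below 0 in either group, with medians of -1.48 in cornus and -1.52 in model. Without overlap with control, 10 of the 14 were lower in cornus (24.4% over all tested genes) and 7 in model (20.8%). The part of the marker levels in the results below was not tested, and in bulk RNA fewer cells of a type and less RNA per cell cannot be told apart.

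Promoter sequence was looked up for the genes, because nuclear respiratory genes are known to share binding motifs for NRF1, for ETS factors such as GABP (also called NRF2), and for YY1. In RefSeq (GRCm38.p6), 77 of the 97 genes matched a promoter of 250 bases before to 50 bases after the annotated start. They are shown for 3 pairs of genes, as the 250 bases before the start with motif matches in capitals: the complex III genes Uqcr11 and Uqcrh and the genes Atp5k and Cox6a1, all of which fell in model and cornus, and Sdha and Atp5g2, which were not called in model. Coordinates are those of the printed bases. Uqcr11 is at chr10:80406822-80407071 (minus strand), Uqcrh at chr4:116075071-116075320 (minus), Atp5k at chr5:108434400-108434649 (minus), Cox6a1 at chr5:115348959-115349208 (minus), Sdha at chr13:74350241-74350490 (minus) and Atp5g2 at chr15:102671048-102671297 (minus).
Uqcr11: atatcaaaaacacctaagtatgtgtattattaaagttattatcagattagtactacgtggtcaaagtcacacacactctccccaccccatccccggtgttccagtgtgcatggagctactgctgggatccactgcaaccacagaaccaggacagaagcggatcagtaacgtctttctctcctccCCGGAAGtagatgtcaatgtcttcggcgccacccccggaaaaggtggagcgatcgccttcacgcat
Uqcrh: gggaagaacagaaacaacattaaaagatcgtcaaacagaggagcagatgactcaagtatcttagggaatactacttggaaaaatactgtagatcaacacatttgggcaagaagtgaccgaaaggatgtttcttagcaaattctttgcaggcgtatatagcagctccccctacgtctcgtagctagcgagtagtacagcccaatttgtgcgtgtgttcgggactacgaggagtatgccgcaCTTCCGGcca
Atp5k: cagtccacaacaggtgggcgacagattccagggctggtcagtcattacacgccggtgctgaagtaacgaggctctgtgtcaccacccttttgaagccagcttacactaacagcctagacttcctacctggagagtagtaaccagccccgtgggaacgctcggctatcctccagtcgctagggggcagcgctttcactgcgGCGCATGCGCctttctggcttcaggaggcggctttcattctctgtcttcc
Cox6a1: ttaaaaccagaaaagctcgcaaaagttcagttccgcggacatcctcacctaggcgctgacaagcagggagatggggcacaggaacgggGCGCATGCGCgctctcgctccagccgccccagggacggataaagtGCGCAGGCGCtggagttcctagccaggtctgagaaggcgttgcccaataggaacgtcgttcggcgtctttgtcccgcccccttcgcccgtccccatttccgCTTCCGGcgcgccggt
Sdha: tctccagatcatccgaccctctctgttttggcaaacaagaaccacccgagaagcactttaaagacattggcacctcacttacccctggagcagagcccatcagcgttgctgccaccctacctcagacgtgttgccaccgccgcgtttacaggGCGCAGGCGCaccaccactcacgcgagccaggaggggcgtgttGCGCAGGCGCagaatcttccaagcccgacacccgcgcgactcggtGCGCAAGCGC
Atp5g2: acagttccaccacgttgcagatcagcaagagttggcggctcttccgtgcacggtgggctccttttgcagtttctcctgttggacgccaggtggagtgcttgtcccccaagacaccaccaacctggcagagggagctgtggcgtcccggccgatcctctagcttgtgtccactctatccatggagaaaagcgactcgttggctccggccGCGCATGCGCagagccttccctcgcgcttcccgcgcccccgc

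The motifs searched on both strands were GCGC, any base and TGCGC for NRF1, CCGGAAG for ETS factors and AAGATGGCG for YY1. The end of the ETS letters and the start of the YY1 letters can share bases, and an NRF1 match whose middle bases are AT counts on both strands at 1 place and is given as 1 match. In the sequences shown, the capitals are 1 ETS match each in Uqcr11 and Uqcrh, 1 NRF1 match each in Atp5k and Atp5g2, 2 NRF1 matches and 1 ETS match in Cox6a1, and 3 NRF1 matches in Sdha. The shares that follow count matches in the whole window, which takes in the 50 bases after the start that are not printed. Over the 77 genes with a promoter, 24.7% held the NRF1 letters, 24.7% the ETS letters and 10.4% the YY1 letters. The same shares were 11.4%, 19.9% and 3.51% over the 10015 tested genes with a promoter in the table, and 5.19%, 9.93% and 1.64% over all 27025 promoters. At least 1 of the 3 was present in 60.5% of the 43 genes with a promoter that fell in model, and in 40.6% of the 32 tested genes that did not. The share was 55.7% of the 61 that fell in cornus, 52.0% of the 75 tested respiratory genes and 31.0% over all tested genes with a promoter. Taken by motif, the gap in model was largest for ETS, at 32.6% of genes that fell and 15.6% of those that did not. It was 27.9% and 21.9% for NRF1, and 11.6% and 9.38% for YY1. Every promoter printed above holds a match in the 250 bases before the start. In the whole window, which is longer, 39 of the 77 genes hold a match. These are counts of letters in a window, described without a test, and a match is not a measured binding site.

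Of the 97 genes, 90 had enough counts to be tested and 7 did not. The 7 were Cox4i2, Cox7b2, Cox8b, Cox8c, Ndufa4l2, Ndufb11b and a second identifier of Atp5o, and 3 of them were at 0 in every library. Among tested genes, total counts over the 12 libraries ran from 132 (Cox7a1) to 115680 (Atp5b). Per length, as mean FPKM (counts scaled to library size and to the deposited Length of each gene) over all libraries, the most abundant were Atp5a1 at 181 FPKM in complex V, Cox6b1 at 146 FPKM in complex IV, Uqcrh at 87.5 FPKM in complex III, Ndufb3 at 79.9 FPKM in complex I and Sdhd at 76.7 FPKM in complex II. Counts of 27 of the 97 genes could include reads of a gene on the opposite strand, since the strand setting of the counting is not given. Of the genes named below this holds for Ndufs1, Ndufa11, Ndufb1, Ndufb11, Ndufa4l2, Ndufaf2, Ndufaf3, Uqcrc2, Cox4i1, Cox6a2, Cox6c, Atp5a1, Atp5j, Atp5md and Atp5pb. Atp5o appears under 2 overlapping identifiers, so its low count is uncertain.

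Taken as a sum, transcripts of the 97 genes were fewest in cornus and most numerous in control libraries. Their summed level was 5248, 4639, 4946 and 4636 CPM in cornus libraries, 5686, 5041, 5481 and 6229.8 CPM in model libraries, and 6557, 6655, 6607 and 8850.5 CPM in control libraries. Every cornus and model library lay below every control library, and the cornus and model libraries overlapped. The same held for complexes I to IV taken one at a time. Complex V was the largest contributor, at 1968 ± 76.97 CPM in cornus, 2358 ± 235 CPM in model and 2857 ± 408 CPM in control (SD, n = 4 each). In complex V every cornus library (1909.5 to 2075 CPM) lay below every model library (2125 to 2677 CPM), and model 4 reached into the control range (2614 to 3467 CPM).

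**Figure D1:**
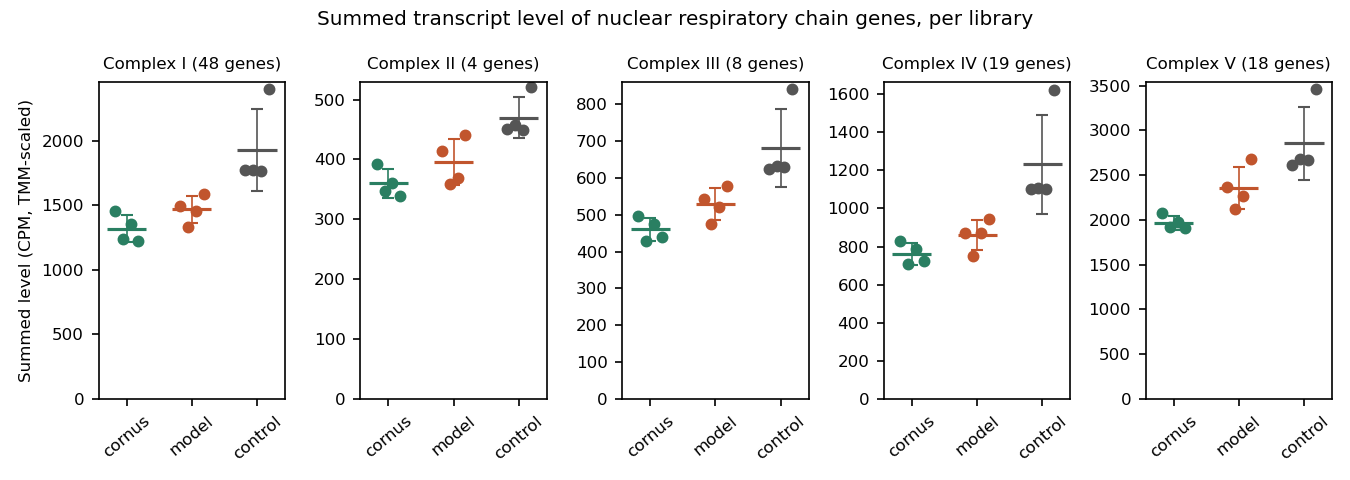
Summed level of the genes of each complex in CPM (y axis, from 0) in cornus, model and control libraries (x axis), with 1 point per library and bars for the mean and SD of 4. Control 4 is the highest point in every panel, and the cornus mean is the lowest.

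**Figure D2:**
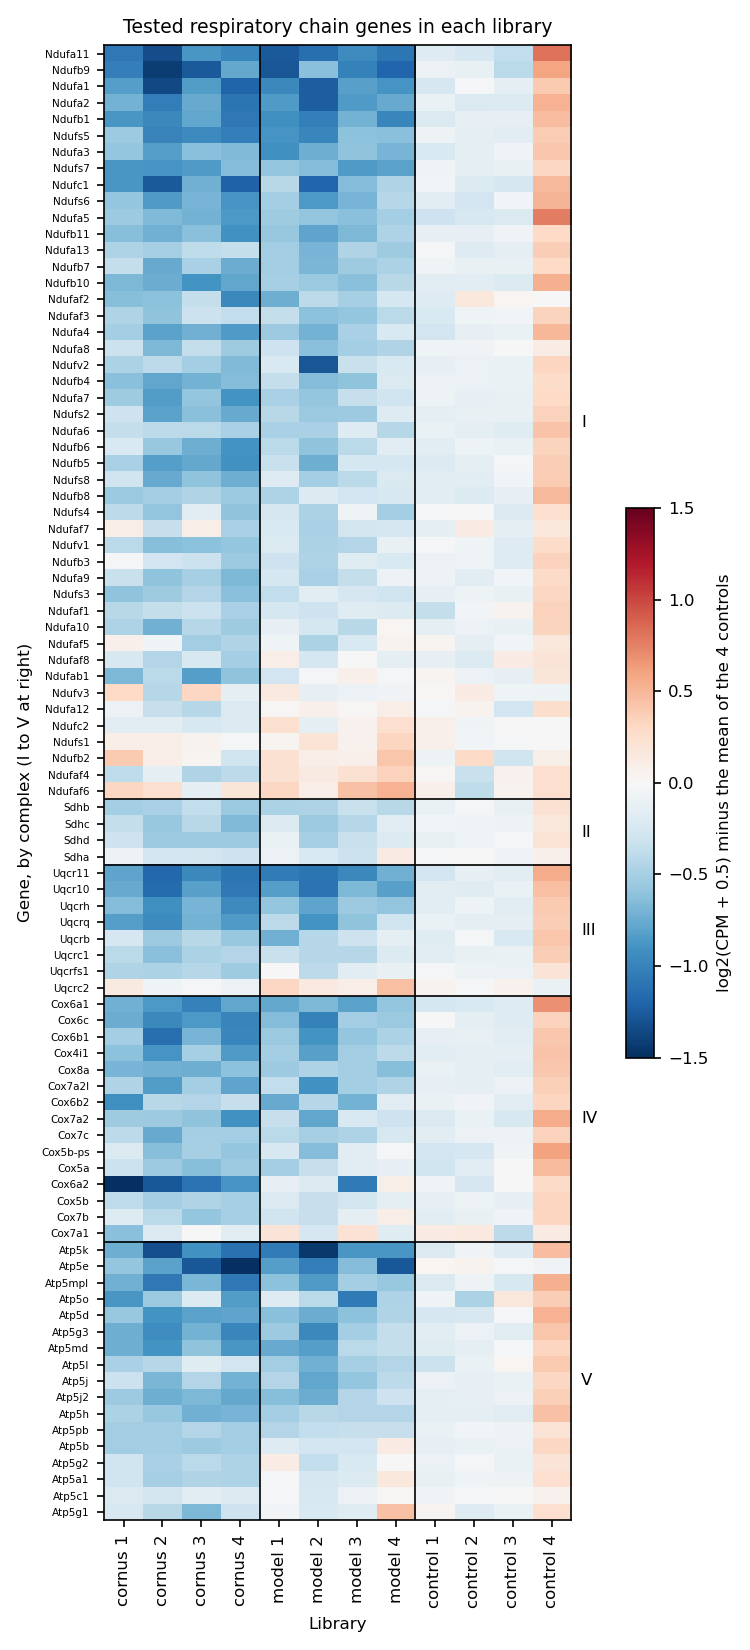
Each row is 1 of the 90 tested genes, grouped by complex (I to V, labels at right) and sorted by the model against control change, and each column is a library. Colour gives log2(CPM + 0.5) minus the mean of the 4 controls. Blue dominates the cornus and model columns, and control 4 is redder than controls 1 to 3 in most rows.

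In model against control, 52 of the 90 tested genes fell and 0 rose. Over all 12549 tested genes the same rule called 15.8% lower and 17.7% higher, so the 57.8% of respiratory genes that fell exceeded the background share. Their median log2 change was -0.44, against -0.0027 over all tested genes, and 82 of 90 values were below 0. The groups did not overlap for 49 of the 52, and over all 90 genes 55 were lower and 1 higher without overlap (background 20.8% and 23.3%). By complex, 25 of 46 tested genes fell in complex I, 2 of 4 in complex II, 6 of 8 in complex III, 8 of 15 in complex IV and 11 of 17 in complex V. In the fit of 12 libraries alone 54 were lower and 1, Uqcrc2, was higher (background 20.9% lower and 23.2% higher). Without control 4, which leaves the 3 near-identical controls, 43 were lower (18% over all tested genes) and 0 higher, and the median was -0.30.

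In cornus against control, 72 of 90 fell and 0 rose, where the rule called 19.7% of all tested genes lower and 18.6% higher. The median log2 change was -0.57, against -0.020 over all tested genes, and 86 of 90 values were below 0. The groups did not overlap for 68 of the 72, and over all 90 genes 74 were lower and 0 higher without overlap (background 24.4% and 24.2%). In the fit of 12 libraries alone 75 were lower and 0 higher (background 23.6% and 24.0%). The genes that fell were 35 of 46 in complex I, 3 of 4 in complex II, 7 of 8 in complex III, 13 of 15 in complex IV and 14 of 17 in complex V. Without control 4, 68 were lower (19.7% over all tested genes) and the median was -0.46. Both comparisons use the same control libraries. Side by side, 52 genes fell in both, 20 were called in cornus only, 18 in neither, and none in model only.

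In cornus against model, no gene passed the threshold in either direction with edgeR, as was so for nearly all genes (background 0.0797% higher and 0.0717% lower). The median log2 change was -0.16, against -0.018 over all tested genes, and 78 of 90 values were below 0. Without overlap between the groups 13 were lower and 0 higher (14.4%, against 7.45% and 6.05% of all tested genes). At an unadjusted p under 0.05, 16 were lower and 0 higher, which is 17.8% of the tested genes here and 10.8% lower over all tested genes. The smallest adjusted p was 0.0676. DESeq2 called 4 lower (Ndufab1, Ndufaf4, Ndufc2 and Cox6a2), against 3.16% of all tested genes, and the edgeR fit without control 4 called 9 lower, against 4.21% of all tested genes. The calls over all genes also rose in both, so the count of 0 depends on the tool and on that library.

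**Figure D3:**
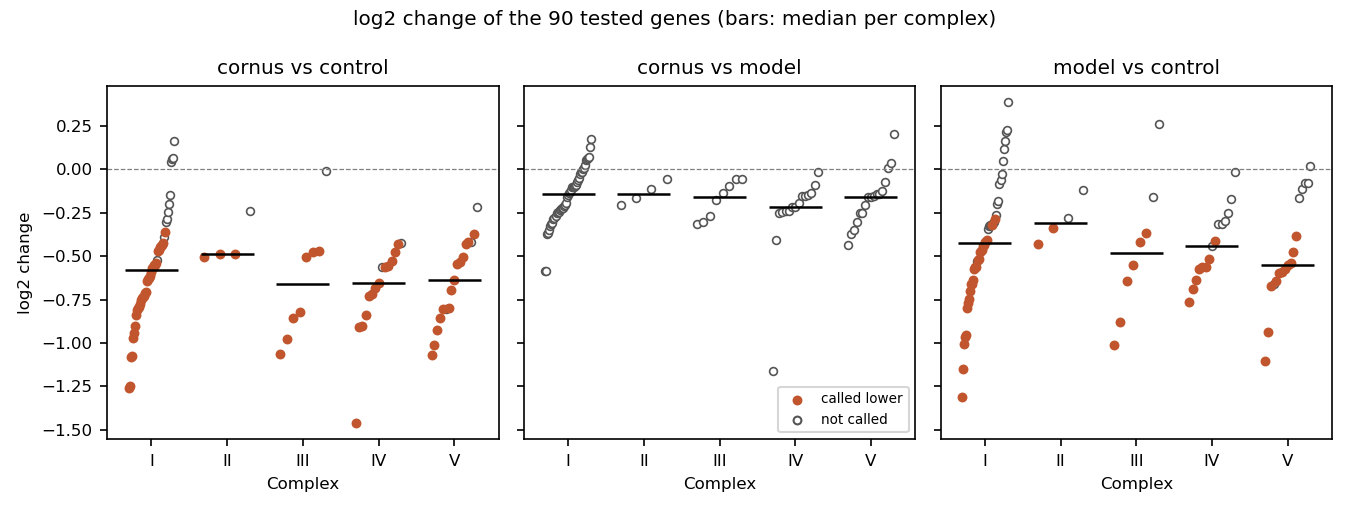
log2 change (y axis) of each tested gene by complex (x axis), with 1 panel for each of the 3 pairs of groups. Filled points are genes called lower and open points are not called, and bars are medians. Most points lie below 0 in the outer panels, with complex medians between -0.49 and -0.66 for cornus and between -0.31 and -0.55 for model, while all points of the middle panel are open.

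Within complex I, the 7 tested core subunits, which carry the flavin, the iron-sulfur clusters and the ubiquinone site outside the membrane, fell for 5 genes in cornus and 4 in model. Ndufs7 holds the last iron-sulfur cluster before ubiquinone. Its level was 16.4, 16.3, 16.7 and 19.3 CPM in cornus, 20.1, 19.2, 16.7 and 17.2 CPM in model and 29.1, 27.5, 28.3 and 38.0 CPM in control libraries. All 8 treated libraries lay below all 4 controls. Its log2 change was -0.84 ± 0.12 (SE) in cornus against control (edgeR adjusted p = 0.000316) and -0.75 ± 0.12 (SE) in model against control (adjusted p = 0.000539). In contrast Ndufs1, the largest core subunit and the one at the entry side with Ndufv1 and Ndufv2, averaged 72.4 ± 2.62 CPM in cornus, 77.7 ± 7.07 CPM in model and 69.5 ± 2.47 CPM in control (SD) and was called in neither comparison, with log2 changes of 0.06 in cornus and 0.16 in model. Ndufs1 falls outside the naming rule and was picked after its values were seen.

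The 30 accessory subunits of complex I, which surround the core and are needed for its assembly and stability, fell for 25 genes in cornus and 19 in model. Ndufa1, a small membrane subunit, stood at 21.9, 15.1, 21.8 and 16.8 CPM in cornus, 19.9, 16.4, 22.1 and 21.04 CPM in model and 33.1, 39.0, 35.8 and 51.9 CPM in control. Ndufb1 of the membrane arm stood at 13.5, 12.7, 14.5 and 11.7 CPM in cornus, 13.1, 12.1, 15.2 and 12.5 CPM in model and 21.5, 23.1, 23.0 and 34.9 CPM in control. Neither gene overlapped between treated and control libraries. Ndufa1 fell by 1.08 ± 0.17 (SE) on the log2 scale in cornus and by 1.01 ± 0.17 in model (edgeR adjusted p = 0.0005 and 0.000648), and Ndufb1 by 0.97 ± 0.16 and 0.95 ± 0.16. Ndufb11, also of the membrane arm, averaged 38.0 ± 3.31 CPM in cornus, 40.8 ± 4.01 CPM in model and 63.5 ± 9.48 CPM in control (SD), and fell in both comparisons (log2 changes -0.74 and -0.64).

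The accessory subunits Ndufb3 and Ndufc2 were not called. Ndufb3, the complex I gene with the highest FPKM, had 68.4, 56.5, 55.2 and 47.2 CPM in cornus, 56.0, 50.1, 61.1 and 58.9 CPM in model and 65.0, 66.3, 60.7 and 88.5 CPM in control libraries. Treated and control libraries overlapped, and neither comparison was called (log2 changes -0.30 and -0.31). Ndufc2, which joins the membrane arm early in assembly, had 37.9, 37.5, 35.8 and 36.8 CPM in cornus, 50.1, 38.4, 44.5 and 50.6 CPM in model and 44.8, 40.5, 42.2 and 42.2 CPM in control. Every cornus value was below every model value and every control value, but no comparison passed the threshold with edgeR (adjusted p = 0.101 against model).

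Ndufab1 is the mitochondrial acyl carrier protein, which serves fatty acid synthesis as well as complex I. It stood at 13.01, 15.9, 11.6 and 13.7 CPM in cornus, 17.2, 20.8, 22.4 and 20.9 CPM in model and 21.7, 19.8, 19.3 and 24.0 CPM in control libraries. Cornus values lay below all others, while model and control overlapped. The log2 change was -0.58 ± 0.12 (SE) in cornus against model (edgeR adjusted p = 0.0676, not called), -0.64 ± 0.12 (SE) in cornus against control (adjusted p = 0.00168, called) and -0.06 ± 0.12 in model against control. This gene was thus among the 20 called in cornus only, but the difference between cornus and model itself did not pass the threshold.

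Of the 8 assembly factors of complex I, 4 fell in cornus (Ndufaf1, Ndufaf2, Ndufaf3 and Ndufaf4; 19.7% over all tested genes) and 1 fell in model (Ndufaf3; 15.8% over all tested genes). Ndufaf4, which acts early in building the peripheral arm, had 14.8, 17.6, 14.1 and 14.8 CPM in cornus, 22.8, 21.3, 23.0 and 24.9 CPM in model and 19.7, 15.4, 20.4 and 23.2 CPM in control libraries. The highest cornus value was below the lowest model value, and control overlapped both. Its log2 change was -0.59 ± 0.13 (SE) in cornus against model (edgeR adjusted p = 0.0678) and -0.36 ± 0.13 (SE) in cornus against control (adjusted p = 0.0344). Ndufa4, named for complex I but now known as a subunit of complex IV, averaged 49.7 ± 5.45 CPM in cornus, 58.3 ± 8.19 CPM in model and 83.6 ± 21.9 CPM in control (SD) and fell in both comparisons with control (-0.75 ± 0.16 and -0.52 ± 0.16). Its relative Ndufa4l2 had 6 counts over all libraries and was not tested.

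Complex II, which is also the succinate dehydrogenase of the tricarboxylic acid cycle, has 4 subunits. Sdha, the flavin subunit that oxidises succinate, had 181, 156, 159 and 154 CPM in cornus, 179, 163, 153 and 208 CPM in model and 189, 190.2, 185 and 202 CPM in control libraries. All cornus values lay below control, the model values overlapped it, and neither comparison was called (log2 changes -0.24 ± 0.10 and -0.12 ± 0.10, edgeR adjusted p = 0.0621 and 0.326). Sdhb, the iron-sulfur subunit, had 58.5, 59.4, 64.6 and 56.8 CPM in cornus, 60.0, 60.3, 66.3 and 62.8 CPM in model and 78.2, 82.3, 77.5 and 97.9 CPM in control libraries. Treated and control values did not overlap, and Sdhb fell in both comparisons (-0.49 ± 0.09 and -0.43 ± 0.09, adjusted p = 0.00101 and 0.00195).

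The membrane anchors of complex II, Sdhc and Sdhd, both fell in cornus, and Sdhc also in model. Sdhc had 64.2, 55.3, 61.6 and 52.0 CPM in cornus, 71.1, 56.4, 61.3 and 73.0 CPM in model and 80.1, 79.3, 78.2 and 92.9 CPM in control. Sdhd had 89.4, 76.2, 76.4 and 76.2 CPM in cornus, 103, 78.8, 88.0 and 96.8 CPM in model and 103, 106, 109 and 129 CPM in control. No treated value of Sdhc reached control, whereas model 1 reached the lowest control value of Sdhd. The log2 changes were -0.50 ± 0.10 (Sdhc) and -0.49 ± 0.10 (Sdhd) in cornus, and -0.34 ± 0.10 and -0.28 ± 0.10 in model. For Sdhd in model the edgeR adjusted p was 0.0433 in the fit of 12 and 0.064 with controls 1 to 3 summed, so it is not counted as having fallen.

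The 5 small subunits of complex III all fell in both comparisons with control. Uqcr11, one of the smallest, had 19.98, 15.2, 17.6 and 16.1 CPM in cornus, 16.7, 16.1, 17.6 and 21.04 CPM in model and 28.7, 32.1, 31.4 and 52.0 CPM in control libraries. Uqcrh, the hinge protein at the docking site of cytochrome c, had 92.7, 76.8, 89.6 and 74.96 CPM in cornus, 97.2, 84.0, 99.8 and 96.7 CPM in model and 129.9, 138, 131 and 192 CPM in control libraries. Both were apart from control in every treated library. Uqcr11 changed by -1.07 ± 0.18 (SE) in cornus and -1.01 ± 0.18 (SE) in model (edgeR adjusted p = 0.00083 and 0.001), and Uqcrh by -0.82 ± 0.13 (SE) and -0.65 ± 0.13 (SE). Uqcr10 and Uqcrq, further small subunits, averaged 28.2 ± 3.88 CPM in cornus, 30.1 ± 3.76 CPM in model and 55.5 ± 12.9 CPM in control (SD) and 30.4 ± 2.15 CPM in cornus, 37.5 ± 6.69 CPM in model and 55.1 ± 10.3 CPM in control (SD).

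Calls differed among the larger subunits of complex III. Uqcrfs1, the Rieske iron-sulfur protein, had 73.1, 71.9, 73.9 and 68.9 CPM in cornus, 101, 76.0, 89.3 and 92.5 CPM in model and 97.7, 94.3, 94.1 and 115 CPM in control libraries. It was below control in every cornus library and overlapped control in model, and it fell in cornus only (-0.48 ± 0.09, edgeR adjusted p = 0.00205, against -0.16 ± 0.09 in model, adjusted p = 0.183). The cornus against model difference was -0.32 ± 0.09 with an adjusted p of 0.107. Uqcrc2, a core protein with no redox centre, had 98.5, 86.0, 88.3 and 84.4 CPM in cornus, 112, 99.6, 96.7 and 123 CPM in model and 93.1, 88.6, 94.2 and 84.2 CPM in control libraries. Every model library lay above every control library, and cornus overlapped both. In model its log2 change was 0.26 ± 0.09 (SE) with an edgeR adjusted p of 0.0335 in the fit of 12 and 0.09 with controls 1 to 3 summed. The cytochrome c1 subunit Cyc1, which the symbol rule leaves out, fell in both comparisons (-0.63 ± 0.14 and -0.51 ± 0.14).

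In complex IV, all 10 tested subunits without a tissue restriction fell in cornus and 6 of 10 in model. Cox4i1, which lies next to the catalytic core, had 135, 111, 146 and 114 CPM in cornus, 145, 117, 143 and 157 CPM in model and 185, 188, 188 and 278 CPM in control libraries. Cox6c, a small membrane subunit, had 67.8, 57.9, 62.5 and 56.9 CPM in cornus, 72.0, 55.9, 79.6 and 77.1 CPM in model and 113, 103, 99.6 and 145 CPM in control. Treated and control libraries were apart for both genes. Cox6c had log2 changes of -0.91 ± 0.14 (SE) in cornus and -0.69 ± 0.14 (SE) in model (edgeR adjusted p = 0.000429 and 0.00186), and Cox4i1 of -0.73 ± 0.15 and -0.58 ± 0.15. Cox5b, the zinc-binding subunit, averaged 63.7 ± 2.77 CPM in cornus, 74.2 ± 4.75 CPM in model and 88.6 ± 14.5 CPM in control (SD) and Cox7b 57.9 ± 6.91 CPM in cornus, 69.0 ± 9.96 CPM in model and 77.8 ± 12.5 CPM in control (SD), and both fell in cornus only (-0.47 ± 0.10 and -0.43 ± 0.13).

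Several complex IV subunits have a ubiquitous and a tissue-restricted isoform. The ubiquitous ones carried most counts, though the restricted isoform Cox6b2 held a sizeable part of its pair (levels below). Cox6a1 had 59.5, 54.0, 48.6 and 57.2 CPM in cornus, 57.7, 61.8, 56.0 and 65.9 CPM in model and 81.8, 84.3, 86.2 and 158 CPM in control libraries, and fell in both comparisons (-0.90 ± 0.19 and -0.77 ± 0.19). Its isoform Cox6a2, known from heart and skeletal muscle, had 12, 26, 32 and 50 counts in cornus, 77, 65, 33 and 111 counts in model and 82, 73, 81 and 91 counts in control libraries. All cornus counts were below control, and model overlapped both groups. Cox6a2 fell in cornus by 1.46 ± 0.32 (SE) on the log2 scale (edgeR adjusted p = 0.0036, and 0.014 with controls 1 to 3 summed) and was not called in model (-0.30 ± 0.31) or in cornus against model (-1.16 ± 0.32, adjusted p = 0.0981). Skeletal muscle markers summed to 4.96 to 8.29 CPM in cornus, 5.12 to 8.24 CPM in model and 16.5 to 35.2 CPM in control libraries, none of the 6 genes at 0 throughout, and 2 of the 3 tested fell in either group. Their part in the Cox6a2 result was not tested, and Cox6a2 overlaps Itgad on the opposite strand.

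Of the other isoform pairs, Cox6b1 averaged 79.0 ± 15.2 CPM in cornus, 90.5 ± 11.2 CPM in model and 141 ± 28.6 CPM in control (SD), and the testis isoform Cox6b2 averaged 34.0 ± 5.69 CPM in cornus, 34.3 ± 6.64 CPM in model and 49.1 ± 8.12 CPM in control (SD). Both fell in both comparisons, with log2 changes of -0.84 ± 0.16 in cornus and -0.64 ± 0.16 in model for Cox6b1, and of -0.53 ± 0.16 and -0.51 ± 0.16 for Cox6b2. Cox7a2, the common isoform, averaged 52.9 ± 6.33 CPM in cornus, 62.4 ± 10.1 CPM in model and 84.8 ± 24.7 CPM in control (SD) and fell in cornus (-0.68 ± 0.18). Cox7a2l, which joins complexes III and IV into supercomplexes, averaged 98.7 ± 13.6 CPM in cornus, 105 ± 16.3 CPM in model and 155 ± 27.9 CPM in control (SD) and fell in both (-0.65 ± 0.15 and -0.56 ± 0.15). Cox7a1, known from muscle and brown fat, stayed under 1 CPM in every library and was not called, and 1 of 4 brown fat markers had enough counts to be tested. Cox8a averaged 55.8 ± 2.25 CPM in cornus, 62.1 ± 3.11 CPM in model and 91.7 ± 18.7 CPM in control (SD) and fell in both (-0.72 ± 0.12 and -0.56 ± 0.12), whereas its isoforms Cox8b and Cox8c had 2 and 0 counts over all libraries, and Cox4i2 had 60.

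In complex V, the small membrane-sector subunits, several of which lie at the contact between paired enzymes, fell for 5 of 5 genes in either group, whereas the F1 head fell for 4 of 5 in cornus and 2 of 5 in model. Atp5k, subunit e of the dimer contact, had 11.46, 7.48, 10.2 and 8.65 CPM in cornus, 9.14, 6.80, 10.4 and 10.4 CPM in model and 16.7, 18.8, 17.0 and 26.9 CPM in control libraries. No treated library reached control. Atp5k changed by -1.07 ± 0.20 (SE) in cornus and -1.11 ± 0.20 (SE) in model (edgeR adjusted p = 0.00139 and 0.00105). Atp5md, a further small membrane subunit, averaged 21.6 ± 2.099 CPM in cornus, 24.9 ± 4.14 CPM in model and 37.6 ± 6.40 CPM in control (SD) and fell in both (-0.80 ± 0.14 and -0.59 ± 0.14).

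The catalytic head subunits Atp5a1 (alpha) and Atp5b (beta), which form the nucleotide-binding ring, had the highest counts of the genes described here. Atp5b had 488, 493, 479 and 492 CPM in cornus, 611, 576, 575 and 763 CPM in model and 646, 656, 658 and 870.1 CPM in control libraries. Cornus lay below both other groups, and model 4 lay above 3 of the controls. Atp5b fell in cornus (-0.54 ± 0.12 (SE), edgeR adjusted p = 0.00414) and was not called in model (-0.16 ± 0.12 (SE), adjusted p = 0.285). Atp5a1 averaged 468 ± 28.7 CPM in cornus, 598 ± 78.7 CPM in model and 632 ± 76.98 CPM in control (SD) and showed the same calls (-0.43 ± 0.11 in cornus, -0.08 ± 0.11 in model). In cornus against model both were lower without overlap, with adjusted p of 0.127 and 0.125.

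The small head subunit Atp5e (epsilon), part of the central stalk, had 46.1, 39.5, 28.5 and 23.8 CPM in cornus, 39.1, 33.6, 44.2 and 28.4 CPM in model and 71.0, 71.9, 68.2 and 67.0 CPM in control libraries. Here control 4 had the lowest of the control values, and every treated library was below it. Atp5e fell by 1.01 ± 0.19 (SE) on the log2 scale in cornus and 0.94 ± 0.19 (SE) on the log2 scale in model (edgeR adjusted p = 0.00148 and 0.00209). Atp5pb (subunit b), the main rod of the peripheral stalk, had 197, 196, 208 and 197 CPM in cornus, 208, 218, 221 and 222 CPM in model and 264, 275, 269 and 326 CPM in control libraries. Treated and control libraries did not overlap, and Atp5pb fell in both (-0.51 ± 0.08 and -0.38 ± 0.08).

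Subunit c, which forms the rotating ring, is encoded by Atp5g1, Atp5g2 and Atp5g3, whose mature proteins are the same. Atp5g3 had 93.8, 81.5, 95.3 and 79.0 CPM in cornus, 107, 79.1, 109.6 and 121 CPM in model and 139.6, 147, 139 and 207 CPM in control libraries. Atp5g2 had 72.2, 63.6, 67.5 and 64.9 CPM in cornus, 96.3, 69.0, 76.2 and 89.6 CPM in model and 84.1, 88.5, 83.6 and 102 CPM in control. Atp5g1 had 35.1, 30.9, 25.9 and 33.5 CPM in cornus, 40.3, 35.5, 36.7 and 56.8 CPM in model and 42.7, 36.4, 38.7 and 49.8 CPM in control. Atp5g3 was apart from control in all treated libraries, while model overlapped control for Atp5g1 and Atp5g2. Atp5g3 fell in both comparisons (-0.85 ± 0.16 and -0.60 ± 0.15) and Atp5g2 in cornus only (-0.42 ± 0.11), and Atp5g1 was not called (-0.42 ± 0.16 in cornus, edgeR adjusted p = 0.0474 in the fit of 12 but 0.071 with controls 1 to 3 summed). Atpif1, an inhibitor of the enzyme that the symbol rule leaves out, fell in both comparisons (-1.01 ± 0.29 and -1.05 ± 0.29).

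The respiratory genes are short, and log2 changes against control rose with Length, a deposited value per gene in bases, over all genes. The median Length was 1631 bases for the 90 tested genes and 4486 bases for all tested genes, and 83 of 90 lay under the latter. Across genes, which are not independent replicates, Spearman's rho between log2 change and Length was 0.364 for cornus and 0.322 for model, both against control, and 0.109 for cornus against model over 12549 genes. Within the 90 respiratory genes it was 0.371, 0.376 and -0.142. A smooth trend over all tested genes (lowess) stood at -0.49 in cornus and -0.39 in model for genes of 1000 bases, and at -0.06 and -0.04 for genes of 4000 bases.

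Set beside the trend at their own Length, the respiratory genes were lower still. In cornus against control 76 of 90 lay below it (84.4%, against 50.7% of all tested genes) with a median distance of -0.29, and in model against control 67 of 90 (74.4%, against 50.5%) with a median distance of -0.20. In the shortest of 5 equal bins of tested genes by Length, 69 to 2529 bases, 35.7% of genes fell in cornus and 28.2% in model, and of the 64 respiratory genes in it 82.8% fell in cornus and 64.1% in model. The genes farthest below the trend in model included Ndufa11 (-0.93), Ndufb9 (-0.76), Atp5l (-0.70) and Atp5k (-0.66), and those above it included Ndufaf6 (0.75), Ndufc2 (0.54) and Uqcrc2 (0.44), chosen here by these distances.

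**Figure D4:**
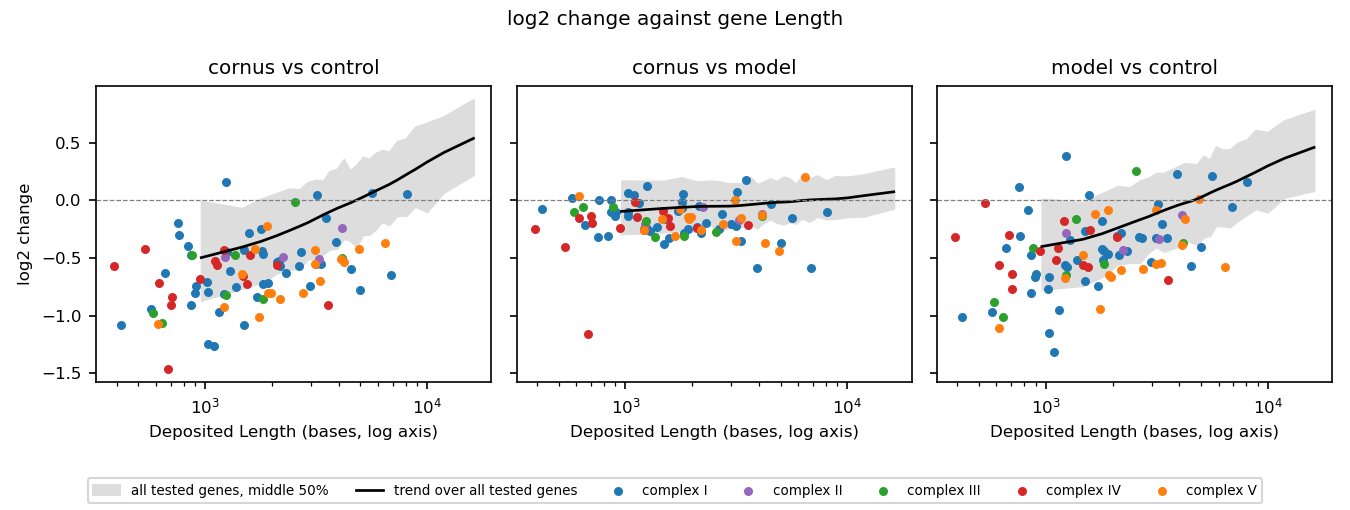
log2 change (y axis) against deposited Length in bases (x axis, log scale) for the 90 tested genes, coloured by complex, with 1 panel for each of the 3 pairs of groups. The black line is the trend over all tested genes and the grey band the middle 50% of genes in 25 bins of Length. The line is drawn between the outermost bins, and points beyond its ends are set against the trend at their own Length. In the outer panels the line climbs with Length, and 76 (cornus) and 67 (model) of the 90 points lie below it.

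When the trend of level on Length was removed within each library before testing, fewer respiratory genes were called. With this offset, and by the same rule on the summed controls, 39 of 90 fell in cornus and 0 rose (background 15.2% lower and 13.6% higher), and 20 fell and 3 rose in model (background 13.2% lower and 13.2% higher). Between cornus and model it called 0 of 90 in either direction, where the background was 0.0558% lower and 0.0717% higher. The medians were -0.29 in cornus and -0.19 in model, against -0.013 and -0.0024 over all tested genes. The 3 that rose in model were Ndufc2, Uqcrc2 and Ndufaf6. In complex IV the count was 2 of 15 in cornus and 1 of 15 in model, against 13 and 8 without the offset, and in complex V 11 and 6 of 17, against 14 and 11. In complex I the counts were 20 and 9 of 46, in complex III 5 and 4 of 8, and in complex II 1 and 0 of 4. Cox6c was the complex IV gene called in both, and Atp5k, Atp5pb, Ndufa1, Ndufb1, Ndufs7, Uqcr10, Uqcr11 and Uqcrh were also called lower in both. Whether the trend is of the samples or of library preparation was not tested. Within control, the difference of control 4 from the mean of controls 1 to 3 had a rho of -0.261 with Length over all tested genes.

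**Figure D5:**
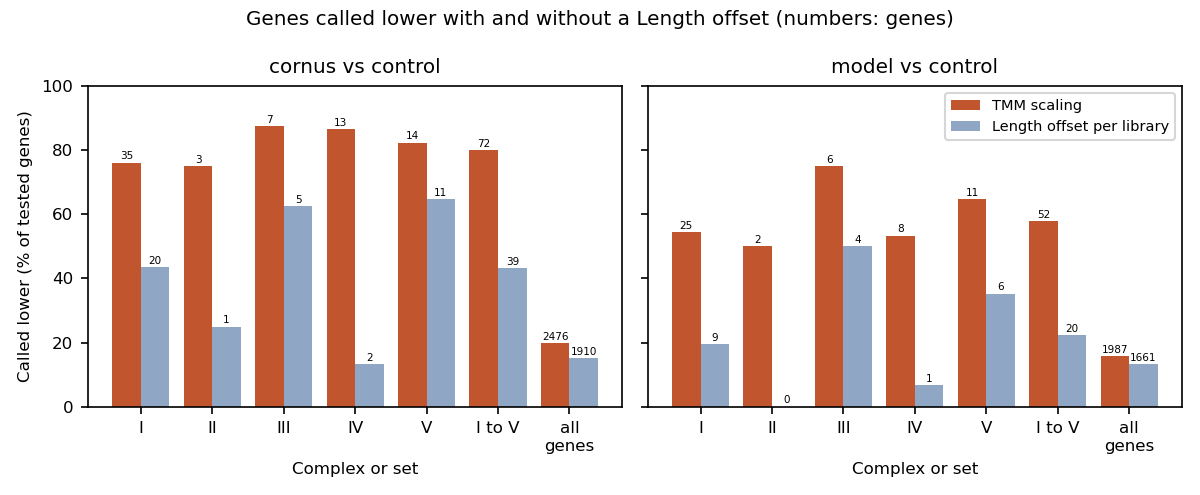
Percent of tested genes called lower (y axis) in each complex, in the 90 tested genes and in all tested genes (x axis), with the usual TMM scaling (orange) and with a Length offset per library (blue), for cornus against control and model against control. Numbers above bars are genes. For all tested respiratory genes the blue bars hold 39 genes in cornus and 20 in model, where the orange bars hold 72 in cornus and 52 in model.

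Transcripts of the mitochondrial genome encode the partner subunits. Of 13 protein-coding genes 12 were tested, and 3 rose and 2 fell in either group, which is near the shares over all tested genes (18.6% higher and 19.7% lower in cornus, 17.7% and 15.8% in model). With the Length offset 7 rose in cornus and 6 in model, and 0 fell in either (background 13.6% and 13.2% higher, 15.2% and 13.2% lower). The median log2 change with it was 0.44 in cornus and 0.48 in model, against -0.01 and 0.06 without it. Their summed level was 24024, 21551, 19009 and 19773 CPM in cornus, 21143, 21159, 19316 and 23006 CPM in model and 16228, 16607, 16308 and 14923 CPM in control libraries, so that every treated library lay above every control library. The log2 change of mt-Nd5 was 1.21 ± 0.17 in cornus and 1.11 ± 0.17 in model (edgeR adjusted p = 0.000274 and 0.000404), and that of mt-Co1 was 0.57 ± 0.14 in both. Not every gene shared the rise of the sum. mt-Co1 was its largest contributor, at 9675 to 11541 CPM in cornus, 9367 to 11598 CPM in model and 6197 to 7287 CPM in control libraries. mt-Nd5 had 2155 to 2814, 2018 to 2599 and 709 to 1195 CPM in the same order. mt-Nd1, also among the most abundant, overlapped control in both groups. Of the 12 tested genes, 3 were higher and 2 lower without overlap in cornus (background 24.2% and 24.4%). In model 4 were higher and 1 lower (background 23.3% and 20.8%). mt-Nd4 was not called (log2 change -0.04 in cornus and -0.07 in model). mt-Nd3 fell in both, mt-Atp6 in cornus and mt-Nd6 in model. Levels of mt-Nd3 were low, between 2.16 and 6.49 CPM. For mt-Atp6, control 4 had 49.7 CPM and controls 1 to 3 had 27.4 to 31.3 CPM. For mt-Nd6, control 4 had 541 CPM and controls 1 to 3 had 371 to 411 CPM. mt-Nd4l, which also rose in both, lay between 0.29 and 1.65 CPM. mt-Nd5 lies opposite mt-Nd6 at its end, and mt-Nd4l overlaps mt-Nd4, so reads of these genes may be shared.

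Genes that act around the chain were counted against the same shares over all tested genes. Of 38 tested assembly factors and related genes outside the symbol rule, 17 fell and 2 rose in cornus and 7 fell and 3 rose in model, the last 2 counts close to or below the shares over all tested genes. Of 13 tricarboxylic acid cycle genes, 4 fell in cornus and 0 in model, with medians of -0.12 and -0.02. Among 13 tested regulators of mitochondrial genes, 3 fell and 2 rose in cornus and 0 fell and 3 rose in model, counts too small to set apart from those shares. Gabpa, the DNA-binding subunit of GABP, rose in both (0.56 ± 0.11 and 0.62 ± 0.11), though it overlaps Atp5j on the opposite strand, whereas Nrf1 was not called (-0.25 ± 0.09 and -0.15 ± 0.09). Tfam, which packages and transcribes mitochondrial DNA, fell in cornus (-0.68 ± 0.10) and was not called in model (-0.28 ± 0.10). Nrf1 and Tfam were picked after their values were seen. For families of like size, 58 of 81 tested cytosolic ribosomal protein genes fell in cornus and 19 in model (medians -0.57 and -0.29; 19.7% and 15.8% over all tested genes), and 57 of 77 mitochondrial ribosomal protein genes in cornus and 27 in model (medians -0.53 and -0.29). With the Length offset the cytosolic family had 16 lower in cornus and 5 lower and 2 higher in model (medians -0.27 and -0.02), and the mitochondrial family 32 lower and 1 higher in cornus and 13 lower in model (medians -0.40 and -0.18). Over all tested genes the offset called 15.2% lower and 13.6% higher in cornus, and 13.2% lower and 13.2% higher in model. The cytosolic count in model lay below that share, and the cytosolic count in cornus and the mitochondrial count in model lay near it. The mitochondrial count in cornus, 32 of 77 with a median of -0.40, lay above it. In the same comparison the respiratory genes had 39 of 90 lower and a median of -0.29.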

How the data were processed

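Poly(A) RNA of mouse bone marrow cells was measured in 12 samples, grouped by the labels into 4 cornus, 4 model and 4 control. Per the submitters' processing notes, the tools were fastp 0.22.0, HISAT2 2.1.0 and HTSeq 0.9.1; the genome build, annotation and strand setting are not given in the sources used here. The authors deposited a whole-number read count and an FPKM value per gene and sample, with a Length per gene. Deposited FPKM equalled count over Length and 1 factor per library, so FPKM served for levels per length and as an alternative.

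The quasi-likelihood F test of edgeR 4.0.16 (R 4.3.3), after filterByExpr and with TMM factors, was run on the counts of 12549 genes, with all 12 libraries in 1 fit and Benjamini-Hochberg adjusted p under 0.05. A fall or rise against control also had to pass with controls 1 to 3 summed to 1 sample (12878 genes tested in that fit). A standard error was taken as the size of the log2 change divided by the root of F, and CPM values are TMM-scaled. The Length trend is a lowess curve (span 0.3). The Length offset removes each library's own lowess curve of log2 CPM deviation on log2 Length. Groups do not overlap when every value of one lies beyond every value of the other. The fits were also run on simulated data, in which all libraries were independent and shared a single spread. Those data hold neither near-identical controls nor a control apart, so this check does not cover these features.

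Named genes were, per complex, the 3 with the smallest p in each comparison, the one with the highest mean FPKM, all Sdh genes, the isoform pairs, and up to 2 genes with the smallest p in each pathway list. The genes, lists and tests were chosen with earlier results of these data known. Alternatives were DESeq2 1.42.0 size factors and its Wald test, limma 3.58.1 on log2(FPKM + 0.5), other filters, a replicate block, fits of only the 2 groups compared, and each library left out in turn. Added after seeing the data were offsets on GENCODE transcript and coding lengths and the Length offset with summed controls.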

Additional observations from a re-analysis of the deposited data

Results flagged for a closer look

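Values of a group of 4 libraries were looked at for 1 library apart from the other 3, by Dixon's test at its 95% critical value for 4 values. This was done in 98 groups, the sums in each group and the named genes in cornus and model, of which chance alone is expected to pick about 1 in 20. In cornus libraries, Atp5pb had one library at 208.14 CPM, above the other 3, Ndufs7 one at 19.27 CPM, above the others, and Sdhd one at 89.353 CPM, above the others. In control libraries, looked at in addition to those 98 groups, control 4 stood apart from controls 1 to 3 in 19 of the 40 named genes tested. Control 4 was also apart in the summed level of all 97 genes (8850.5 CPM) and of complex I (2399.1 CPM), complex II (521.06 CPM), complex III (841.55 CPM), complex IV (1621.9 CPM) and complex V (3466.9 CPM). Because controls 1 to 3 are nearly identical, a control 4 that differs from them by the usual spread between samples is picked by this test. The same library had hemoglobin at 9.80% of its counts, against 2.45% to 2.49% in controls 1 to 3, and its part in these levels was not tested.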

How the results depend on the processing

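The counts below are of the 90 tested genes in the fit of 12 libraries, 75 lower in cornus and 54 in model against control. Over all tested genes that fit called 23.6% lower in cornus and 20.9% in model. The largest shifts came from Length. With the Length offset 46 were lower and 2 higher in cornus and 25 lower and 4 higher in model, with medians of -0.29 and -0.19. With controls 1 to 3 also summed these were 40 lower in cornus and 20 lower and 3 higher in model (medians -0.39 and -0.25). An offset on transcript length gave 39 lower and 2 higher in cornus and 18 lower and 5 higher in model (medians -0.26 and -0.15), and one on coding length 47 lower and 1 higher, and 29 lower and 5 higher (medians -0.33 and -0.21). Over all tested genes these offsets called 15.4% to 20% lower in cornus and 13.3% to 18.8% in model. They called 1737 to 2518 genes higher in cornus and 1670 to 2504 in model, of 12549 or 12878 tested. Under these offsets Sdhd in model turned to 0.083 (Length, and again with controls summed). In cornus Cox7b turned to 0.012 (Length) and 0.0064 (coding length), and Atp5g2 to 0.070 and Cox6b2 to 0.065 (transcript length). The edgeR adjusted p of these values ran from 0.406 to 0.963, so none was called. Why the signs changed was not tested.

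Summing controls 1 to 3 moved the medians to -0.72 in cornus and -0.55 in model. The count higher in model, 1 in the fit of 12, was 0 with no filter, with controls summed and with 2 groups fitted, and 3 with FPKM and limma at each pseudocount (0.1, 0.5 and 1). FPKM and limma called 3369 to 3377 of all 12549 tested genes higher in model. In model the FPKM median was -0.33 (pseudocount 0.5) and -0.32 (pseudocount 1). In cornus against model, FPKM with limma called 7 lower at each pseudocount, with medians of -0.27, -0.27 and -0.26 at 0.5, 0.1 and 1, while the median of all tested genes moved to -0.11, -0.13 and -0.091, and DESeq2 called 4 lower. Over all tested genes FPKM with limma called 3.77% to 3.92% lower, and DESeq2 3.16%. The causes of these differences were not tested.

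Leaving out 1 library at a time gave 67 to 75 lower and 0 higher for cornus against control (median -0.63 to -0.46), 42 to 56 lower and 0 to 1 higher for model against control (median -0.50 to -0.30), and 0 to 9 lower and 0 higher between cornus and model (median -0.22 to -0.11). The 9, and both medians nearest 0 against control, came without control 4. Over all tested genes these fits called 19.6% to 23.3% lower for cornus against control and 16.8% to 21.4% for model against control. Between cornus and model they called 0 to 4.21% lower. Same-numbered libraries did not deviate together in every pair (correlations from -0.135 to 0.452), so the numbers were not taken to pair them. Some pairs did: cornus and model gave 0.452 for number 1 and 0.341 for number 2, where the highest with another number was 0.0428 and 0.0439. For cornus 4 and model 4 it was 0.0446, against 0.369 with another number. Whether the numbers mark a shared batch was not tested. With the replicate block 73 were lower in cornus (25.1% over all tested genes) and 52 lower (22.3%) and 1 higher in model, both against control. Between cornus and model it called 0. Depth limits the isoforms with few counts, which were not tested.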
